A study of Mus musculus with 3 samples.

Results

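The hypoxia-inducible factor (HIF) genes and the genes of the machinery that senses oxygen for them were followed through early mouse heart formation. The 9 genes were taken by symbol from the count matrix, which holds 51923 genes: the factor subunits Hif1a, Epas1, Hif3a and Arnt, the ubiquitin ligase subunit Vhl, the asparaginyl hydroxylase Hif1an, and the prolyl hydroxylases Egln1, Egln2 and Egln3. All 9 were found, and UMIs (unique molecular identifiers, 1 per captured RNA molecule) over all cells ran from 685 for Epas1 to 41237 for Egln1. The study asked how Wnt ligands secreted by the early heart fields act on the fate of second heart field cells. C57BL/6 mouse embryos carried Mesp1-Cre, which is active in early mesoderm, and Ai9, a red reporter that Cre switches on. The sort for the reporter thus aimed at mesoderm derivatives, in both genotypes. By the markers described below, 153 of the sorted cells were neural-like and 77 were like endoderm or epithelium. Controls were Wls fl/+ and mutants were Wls fl/fl: the floxed gene, Wls, encodes the carrier that Wnt proteins need for secretion. Controls therefore also carried Cre and 1 floxed allele. Embryos were taken at E8.0, E8.5 and E9.5 (days after fertilisation), tagged with MULTI-seq lipid barcodes, pooled over both genotypes and run on a 10x Chromium droplet system.

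HIF is a pair of proteins, 1 alpha subunit (HIF1A, EPAS1, also called HIF2A, or HIF3A) and the shared partner ARNT. When oxygen is ample, the EGLN enzymes hydroxylate prolines of the alpha subunit, VHL binds the hydroxylated protein and marks it for destruction, and HIF1AN hydroxylates an asparagine that blocks binding of coactivators. When oxygen falls, the alpha subunit is spared and switches on genes of glycolysis, vessel growth and iron handling. EGLN1 and EGLN3 are textbook targets of HIF itself, which makes the loop self-limiting, while EGLN2 is not known for this. Since the alpha subunits are controlled mainly as proteins, their RNA level says little of HIF activity. The heart tube and its vessels form in low oxygen in the embryo, before the circulation is complete.

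The deposited table held 14777 cells, 9852 control and 4925 mutant, with a median of 21739 UMIs per cell. The unit of comparison was the barcode sample, that is, the UMIs of all cells with the same run, barcode, stage and genotype summed: 3 control and 3 mutant samples at E8.0, 2 and 1 at E8.5, 6 and 6 at E9.5, and 1 control sample listed as E7.5 (28 cells) that lies outside the stated design. Levels are given as CPM, the UMIs of a gene per 1000000 UMIs of its sample. The labels do not say that barcodes stand for separate embryos, so p-values measure only the spread between these samples. Wls itself was lower in every mutant sample (7.25 to 14.2 CPM at E8.0, 3.72 at E8.5, 8.54 to 12.1 at E9.5) than in every control of its stage (54.1 to 65.4, 39.1 to 59.6 and 35.9 to 46.1 CPM). The E9.5 control sample Bar6 held only 6 cells (134457 UMIs), and results were computed with and without it. At E8.0, 98.3% to 99.1% of cells typed as male in the mutants against 2.16% to 53.1% in the controls, so that genotype and sex cannot be told apart there. Runs shared 23 cell barcodes (46 cells).

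The promoters of the 3 EGLN genes are shown because these genes differed by genotype in the tests below. In capitals are the 5-letter cores of the HIF-binding motif, ACGTG and GCGTG, or their reverse complements CACGT and CACGC, searched on both strands; ACGTG and CACGT overlap where the letters CACGTG stand. Sequences are from RefSeq (GRCm38.p6), read 5′ to 3′ along the gene's strand. They end just before the RefSeq start or the start in the annotation, whichever comes first. For Egln1 the annotated start comes first, 70 bases before the RefSeq start, for Egln3 the RefSeq start does, and for Egln2 they coincide. The places are chr8:124949325-124949504 for Egln1, chr12:54203875-54204124 for Egln3 and chr7:27166803-27167052 for Egln2, all on the minus strand.
Egln1: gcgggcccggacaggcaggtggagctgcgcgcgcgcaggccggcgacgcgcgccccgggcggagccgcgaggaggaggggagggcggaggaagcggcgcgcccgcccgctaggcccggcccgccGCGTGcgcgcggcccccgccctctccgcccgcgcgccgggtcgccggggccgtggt
Egln3: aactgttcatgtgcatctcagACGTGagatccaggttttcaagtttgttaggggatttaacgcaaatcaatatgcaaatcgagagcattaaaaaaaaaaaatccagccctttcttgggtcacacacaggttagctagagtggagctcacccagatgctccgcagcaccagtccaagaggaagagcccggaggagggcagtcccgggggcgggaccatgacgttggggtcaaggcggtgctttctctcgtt
Egln2: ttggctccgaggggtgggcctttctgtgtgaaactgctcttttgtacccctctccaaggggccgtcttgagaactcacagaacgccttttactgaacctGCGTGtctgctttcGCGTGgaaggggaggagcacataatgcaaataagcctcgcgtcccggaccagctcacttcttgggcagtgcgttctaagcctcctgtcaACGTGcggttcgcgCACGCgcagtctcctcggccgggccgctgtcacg
The core printed for Egln1 lies 126 bases before the RefSeq start and the one in Egln3 229 bases before it. The printed Egln2 stretch holds 4, between 151 and 34 bases before the start. Of all 32851 mouse promoter windows of 300 bases (250 before to 50 after a start), 43.8% hold at least 1 of these cores, so a match describes the letters and no more. RefSeq had windows for 8 of the 9 genes, all except Epas1. In the 300-base window Egln2 had 6 matches, Hif1a 3, Egln1 and Hif3a 2 each, Egln3 and Arnt 1 each, and Vhl and Hif1an 0. The Hif1a window (chr12:73907617-73907916) lies inside the gene as annotated, so its matches do not describe the annotated start. The second match of Egln1, ACGTG, lies 68 bases before the RefSeq start, past the end of the printed stretch. A second Egln2 window had 1.

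Egln1, the main oxygen sensor among the hydroxylases (chr8:124908587-124949324 in GRCm38), was higher in the mutants at E9.5. Its level in the 6 control samples ran from 82.1 CPM through a median of 98.7 to 149 CPM, and in the 6 mutant samples from 199 through 267 to 301 CPM. Every mutant sample was above every control sample. The highest control was the 6-cell sample Bar6, whose 20 UMIs give an exact 95% Poisson interval of 90.9 to 230 CPM (counting error only). By edgeR's quasi-likelihood test with Benjamini-Hochberg adjustment, the log2 fold change was 1.41 (SE 0.11, adjusted p = 2.1e-06), a 2.67-fold rise. Among cells thinned to 5000 UMIs each, the share with an Egln1 UMI averaged 62.8% ± 5.54 (SD, n = 6) in mutants and 37.4% ± 2.76 (SD, n = 5) in controls; without thinning it was 84.1% and 69.1%. Shares leave out Bar6, as a sample of under 20 cells.

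Egln3, a hydroxylase with a strong response to low oxygen in many cells (chr12:54178981-54203860), had the largest genotype difference of the 9 genes at E9.5. Its level ran from 3.09 through a median of 3.50 to 22.3 CPM in controls and from 13.7 through 21.9 to 25.8 CPM in mutants. The groups overlapped through Bar6 alone, where 3 UMIs gave 22.3 CPM with an interval of 4.60 to 65.2 CPM; the other 5 controls were at or below 5.08 CPM. The log2 fold change was 2.54 (SE 0.20, adjusted p = 2.9e-06, edgeR), a 5.80-fold rise, and it was 2.55 with samples of under 20 cells left out. The thinned share of cells with a UMI was 10.2% ± 2.19 (SD, n = 6) in mutants and 1.85% ± 0.70 (SD, n = 5, without Bar6) in controls, against 22.1% and 6.53% without thinning. For both genes the difference was of like size within a single sequencing run: Egln1 had 1.37 in the first run (adjusted p = 0.016, edgeR) and 1.37 in the third (0.0097), and Egln3 had 2.55 (0.012) and 2.64 (0.026). With the share of male cells as a covariate the values were 1.33 for Egln1 and 2.28 for Egln3, and both calls were kept.

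Egln2, the mainly nuclear prolyl hydroxylase (chr7:27158658-27166802), moved the other way. Controls at E9.5 ran from 37.2 through a median of 58.0 to 64.7 CPM and mutants from 36.6 through 44.2 to 54.4 CPM. The ranges overlapped, and the lowest control was the 6-cell sample Bar6. The log2 fold change was -0.41 (SE 0.10, adjusted p = 0.017, edgeR). The call was lost without control Bar22 (adjusted p = 0.051) or control Bar23 (0.068), within the third run (-0.29, adjusted p = 0.44) and when libraries were scaled by their UMI totals alone (-0.39, adjusted p = 0.076). Egln2 overlaps Cyp2t4 on the opposite strand, a gene with 105 UMIs in all.

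**Figure D1:**
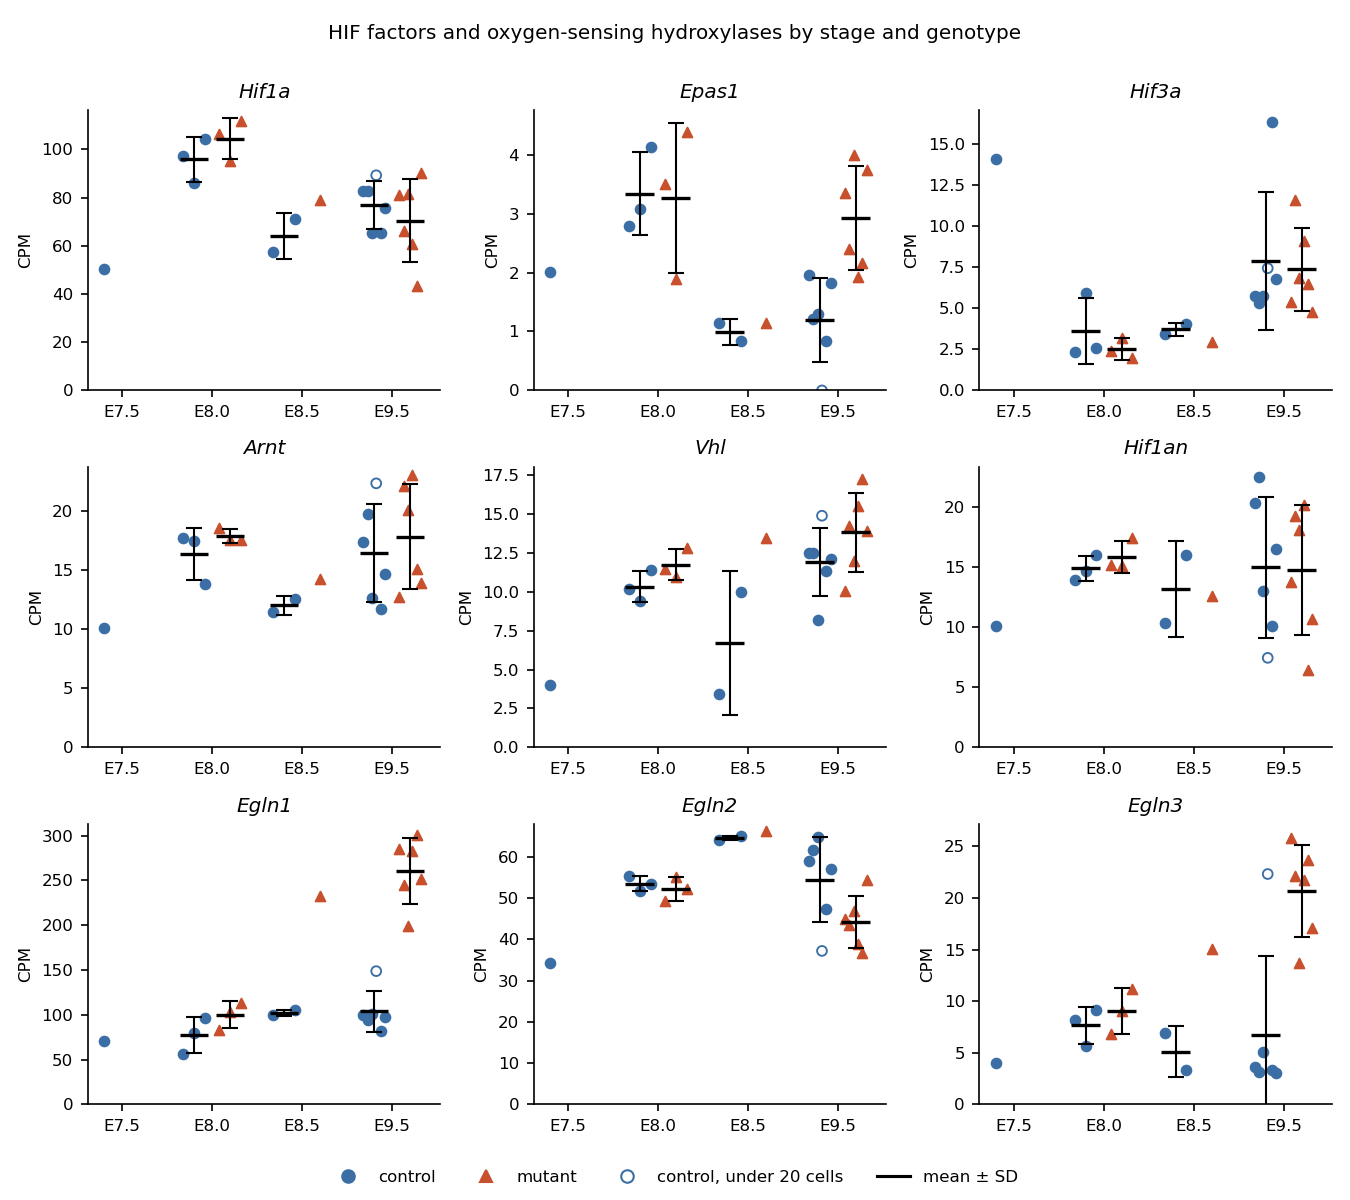
Level in CPM (linear axis) of each of the 9 genes in each barcode sample, by stage and genotype; circles are controls, triangles mutants, the open circle the control of under 20 cells, and black lines the mean ± SD. At E9.5 all 6 mutant points of Egln1 (199 to 301 CPM) lie above the control points (82.1 to 149 CPM), while at E8.0 the points of both genotypes mix.

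Among the factor subunits, Epas1, the alpha subunit best known from vessel cells (chr17:86753700-86833410), was called higher in mutants at E9.5. It was scarce: controls ran from 0 through 1.26 to 1.96 CPM and mutants from 1.92 through 2.88 to 3.99 CPM. The groups touched between 1.92 and 1.96 CPM, and the 0 came from Bar6, where 3 UMIs would already be 22.3 CPM. The log2 fold change was 0.88 (SE 0.25, adjusted p = 0.037, edgeR). Leaving out 1 sample at a time kept the direction (0.71 to 1.09) but ended the call for 9 of the 12 samples (Bar4, Bar9, Bar22 and Bar23 of the controls and Bar5, Bar8, Bar10, Bar19 and Bar20 of the mutants), with adjusted p up to 0.20; within the first run it was 0.84 (adjusted p = 0.15), and by UMI totals it was 0.87 (adjusted p = 0.062). Epas1 was several times higher in endothelial-like cells than in the other classes described below, and the summed endothelial markers had a median of 122 CPM in controls and 167 CPM in mutants at E9.5. Within endothelial-like cells at E9.5 Epas1 stood at 11.06, 11.98 and 21.87 CPM in 3 controls and at 10.4 and 31.0 CPM in 2 mutants, 1 below and 1 above every control, and it was not called (0.76, adjusted p = 0.56, edgeR). The part of the endothelial share in the difference of summed cells was not tested.

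Hif1a, the alpha subunit found in nearly all cells (chr12:73901375-73947530), showed no call by genotype at E9.5. Controls ran from 65.3 through 79.3 to 89.2 CPM, the highest being the 6-cell sample Bar6, and mutants from 43.1 through 73.6 to 90.2 CPM. The ranges overlapped, with mutants Bar5 and Bar21 (60.7 CPM) below every control and mutant Bar8 above every control. Its log2 fold change was -0.16, with a 95% interval of -0.34 to 0.03 (adjusted p = 0.33, edgeR). An antisense gene, Gm15283 (1219 UMIs), overlaps Hif1a, and whether strand was used in counting is not given in the sources used here. Hif3a, an alpha subunit with forms that restrain the others (chr7:17031507-17062427), had 0.25 with an interval of -0.39 to 0.89. Arnt, the shared partner (chr3:95434388-95497240), had 0.15 (-0.08 to 0.39). The remaining pair, which act on the alpha subunits after or beside the prolyl hydroxylases, were not called either. Vhl (chr6:113623959-113631633) had 0.20 (-0.11 to 0.50) and Hif1an (chr19:44562850-44576274) had -0.23 (-0.48 to 0.03). In all, 3 of the 9 genes were called higher and 1 lower at E9.5, where 10.3% of the 17227 genes tested were called. Without Bar22, and likewise without Bar23, 2 of the 9 remained called, Egln1 and Egln3.

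At E8.0 none of the 9 genes was called by edgeR, in a comparison that called 0.0244% of 16416 genes. DESeq2 called 0 of the 9. By edgeR 0 of the 9 had an unadjusted p under 0.05, beside 1615 of the 16416 genes. Egln1 stood at 55.9, 79.5 and 96.3 CPM in the 3 controls and at 83.5, 103 and 113 CPM in the 3 mutants. The mutants were on average higher, with overlap of 1 mutant with 1 control, and the log2 fold change was 0.30 with an interval of -0.05 to 0.64 (adjusted p = 0.58, edgeR). Egln3 stood at 5.70, 8.18 and 9.13 CPM in controls and at 6.82, 9.09 and 11.2 CPM in mutants, which overlapped, at a log2 fold change of 0.17 (-0.26 to 0.61). The summed cardiomyocyte markers at E8.0 did separate the genotypes, at 1325 to 2326 CPM in controls and 3021 to 3273 CPM in mutants, and their part in these values was not tested. Within cardiomyocyte-like cells Egln1 averaged 89.6 ± 8.41 CPM (SD, n = 3) in controls and 106 ± 13.1 CPM (SD, n = 3) in mutants at E8.0. With the share of male cells as a covariate both signs turned, to -0.33 for Egln1 and -0.31 for Egln3, at adjusted p near 1 (0.999). Hif1a, Vhl, Arnt and Hif1an lay between 0.01 and 0.11, Egln2 at -0.11, Epas1 at -0.14 and Hif3a at -0.61 (-1.40 to 0.18).

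The change of the genotype difference from E8.0 to E9.5 was itself tested. The interaction, on the log2 scale, was 1.12 for Egln1 (SE 0.20, adjusted p = 0.015, edgeR) and 2.36 for Egln3 (SE 0.32, adjusted p = 0.0024). These 2 of the 9 genes were called higher at E9.5 than at E8.0 in their genotype difference, where the test called 0.464% of 17872 genes. The Egln1 call was lost without the E8.0 mutant Bar25 (1.01, adjusted p = 0.064), and the Egln3 call was kept without each of the 18 samples in turn. For Egln3 the control median was 8.18 CPM at E8.0 and 3.50 CPM at E9.5, and the mutant median 9.09 and 21.9 CPM. By the median, controls were thus lower and mutants higher at the later stage. Epas1 had 1.02 (adjusted p = 0.32), and the other 6 genes lay between -0.29 and 0.83. Every E8.0 sample belongs to a single run, while E9.5 samples come from 3 runs. Genotype and sex cannot be told apart at E8.0, and male share was not fitted in the test of the interaction.

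At E8.5 a single mutant sample left little to test. Egln1 stood at 233 CPM in it (counting interval 224 to 242) and at 99.7 and 105 CPM in the controls, and Egln3 at 15.1 CPM (12.8 to 17.6) against 6.87 and 3.34 CPM. The mutant was above both controls for both genes, with no replicate. The summed cardiomyocyte markers were also higher in it, at 5316 CPM against 598 and 1070 CPM, with 19.9% of its cells cardiomyocyte-like against 14.7% and 7.18%. The controls are given in the order Bar2 (34 cells) and Bar3 (2508 cells). Within cardiomyocyte-like cells Egln1 stood at 253 CPM in the mutant and at 158 CPM in the 1 control with at least 20 such cells; the part of the mixture in the difference was not tested. Over all stages together, with stage and run as covariates, 10.2% of 20831 genes were called. Egln1 (log2 fold change 1.01, SE 0.14, adjusted p = 0.00059, edgeR) and Egln3 (1.61, SE 0.28, adjusted p = 0.0021) were higher and Egln2 (-0.28, SE 0.07, adjusted p = 0.020) was lower in mutants, and the other 6 genes were not called. With E9.5 left out, no call of the 3 was kept, at 0.55 for Egln1 (adjusted p = 0.25), 0.64 for Egln3 (0.41) and -0.09 for Egln2. The Egln2 call was also lost by UMI totals (-0.21, adjusted p = 0.12), with male share as covariate (-0.21, adjusted p = 0.14), without Bar23 (-0.25, adjusted p = 0.059) and within each run (-0.26, -0.21 and -0.30). Within the first run alone Egln1 was at 0.77 (adjusted p = 0.078) and Egln3 at 1.23 (adjusted p = 0.12), and within the second Egln3 was at 1.99 (adjusted p = 0.10), none of them called. Egln1 was called in the second (1.36) and in the third (1.37) and Egln3 in the third (2.63). The third run holds only E9.5 samples and the E7.5 control, so its values repeat those given above for E9.5.

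**Figure D2:**
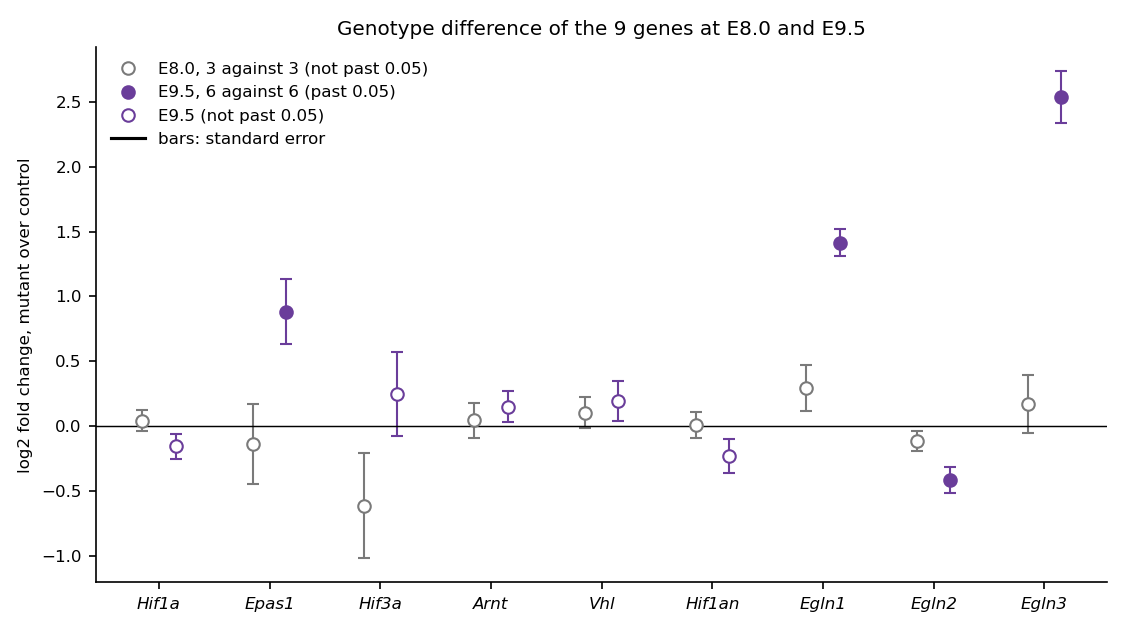
Log2 fold change of mutant over control for each of the 9 genes at E8.0 (grey) and at E9.5 (purple), with bars of 1 standard error; filled points passed the adjusted threshold of 0.05. Egln1 (1.41) and Egln3 (2.54) stand highest at E9.5, Epas1 (0.88) and Egln2 (-0.41) are the other filled points, and no E8.0 point is filled.

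The cell mixture of the sorted samples was checked beside these results, since in summed cells a larger share of a cell type and more RNA per cell cannot be told apart. At E9.5 the summed level of the 6 endothelial markers, all detected, was 44.6 to 165 CPM in controls and 112 to 212 CPM in mutants. That of the 6 proepicardial markers was 7.44 to 67.1 CPM and 59.2 to 130 CPM, and that of the 6 erythroid markers 188 to 599 CPM and 220 to 756 CPM. The cardiomyocyte sum ran from 44.6 to 5185 CPM in controls and from 712 to 7826 CPM in mutants. All 4 ranges overlapped at E9.5, unlike the cardiomyocyte sums at E8.0 given above. The lowest control for the endothelial, proepicardial and cardiomyocyte sums was the 6-cell Bar6. Paraxial markers had a median of 190 CPM in controls and 130 CPM in mutants, and megakaryocyte or myeloid markers 31.8 and 53.6 CPM. These ranges and those of the second heart field, neural and endoderm or epithelium sums overlapped too. Leaving out blood cells, those of the erythroid and of the megakaryocyte or myeloid class, left the Egln1 difference at E9.5 at 1.41. That of Egln3 was then 2.67. The values within cell classes are given below.

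Between stages, with genotype as a covariate, 3 of the 9 genes were called from E8.0 to E9.5, where 22.5% of 18063 genes were. Egln1 was higher at E9.5 (log2 fold change 1.01, SE 0.18, adjusted p = 0.00037, edgeR), a value that averages over both genotypes: the control means were 77.2 ± 20.3 CPM (SD, n = 3) at E8.0 and 104 ± 23.0 CPM (SD, n = 6) at E9.5, and the mutant means 100.03 ± 15.1 CPM (SD, n = 3) and 261 ± 37.0 CPM (SD, n = 6). Hif1a was lower (-0.32, SE 0.09, adjusted p = 0.016). The E8.0 samples lay between 85.9 and 112 CPM and the E9.5 samples between 43.1 and 90.2 CPM, with 1 E8.0 sample inside the later range. Hif3a was higher (1.43, SE 0.28, adjusted p = 0.0011), from 1.95 to 5.93 CPM at E8.0 to 4.80 to 16.3 CPM at E9.5. With blood cells left out, the Hif3a difference was 0.64 and no longer called (adjusted p = 0.084). Since E8.0 samples come from the first run alone, run was also fitted. With run as a covariate the calls of Egln1 (0.83), Hif1a (-0.40) and Hif3a (1.36) were kept, and Hif1an was called higher too (0.42, adjusted p = 0.013, against 0.21 without the covariate). Within the first run Hif1an (0.41, adjusted p = 0.0019) and Vhl (0.28, adjusted p = 0.032) were called higher besides these 3. With genotype as the only covariate, Egln3 (0.20, a value that averages over both genotypes), Egln2 (0.08), Arnt and Vhl were not called. Epas1 was lower at E9.5 and not called (-0.56, adjusted p = 0.068, edgeR). It was called lower without blood cells (-0.66, adjusted p = 0.027), without cells of more than 1 class (-0.60, 0.040) and by UMI totals (-0.66, 0.037). It was also called lower without mutant Bar27 (-0.73, 0.012) or mutant Bar20 (-0.67, 0.026). From E8.0 to E8.5, 19.0% of genes were called, among them Egln1 (0.92, adjusted p = 0.011), Egln2 (0.44, adjusted p = 0.025) and Epas1 (-1.53, adjusted p = 0.0076). Each of these 3 calls was lost with run as a covariate (0.41, 0.08 and -1.39), E8.0 and E8.5 having been run apart. From E8.5 to E9.5, 0.0332% of genes and none of the 9 were called by edgeR. Its unadjusted p was under 0.05 for 3 of the 9, Epas1, Hif3a and Egln2, and for 4104 of 18063 genes.

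The 9 genes were next compared between cell classes. A cell was put in a class when at least 3 of the 6 markers fixed for it had at least 2 UMIs each, none of the markers being a member. Of all cells, 52.9% met no class and 506 met more than 1, and both were left out. Class sums of at least 20 cells were kept: 18 for cardiomyocyte-like cells, 13 endothelial-like, 16 erythroid-like, 14 paraxial mesoderm-like, 10 second heart field-like and 2 neural-like. Since the markers chose the cells, their levels in the classes are no check of the names. Each class was tested against the mean of the other classes, with the barcode sample as a block.

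Endothelial-like cells had the highest Epas1 and Egln3. Epas1 averaged 10.95 ± 8.07 CPM (SD, n = 13) there, against 2.31 in cardiomyocyte-like, 1.08 in second heart field-like, 0.676 in paraxial and 0.534 CPM in erythroid-like sums. The log2 difference was 3.04 (SE 0.33, adjusted p = 9.6e-12, edgeR). Egln3 averaged 40.3 ± 24.0 CPM (SD, n = 13) in endothelial-like cells, then 13.3 in cardiomyocyte-like, 10.7 in second heart field-like, 5.22 in paraxial and 1.96 CPM in erythroid-like sums, and its log2 difference was 2.64 (SE 0.22, adjusted p = 5.5e-16). The order of the second and the third class holds for means only: the medians were 5.37 CPM in cardiomyocyte-like and 7.59 CPM in second heart field-like sums. Egln1 (0.37, adjusted p = 0.0072) and Hif1a (0.24, adjusted p = 0.016) were also higher, so that 4 of 9 were called, against 46.8% of the 13112 genes tested. With E9.5 alone the calls of Egln1 (0.35, adjusted p = 0.079) and Hif1a (0.23, adjusted p = 0.078) were lost, and Egln2 was called higher (0.35, adjusted p = 0.021). In cells thinned to 5000 UMIs, 6.29% of endothelial-like cells held an Epas1 UMI against 0.257% of erythroid-like cells. For Egln3 the shares were 17.1% and 1.12%. Hemoglobin RNA took a median of 32.2% of the UMIs of erythroid-like sums, which leaves fewer for other genes at a fixed depth. The background of free RNA was not measured. Without thinning the shares were 16.5% and 1.39% for Epas1 and 48.3% and 5.85% for Egln3, at median depths of 24840 and 29371 UMIs per cell.

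Erythroid-like cells had the highest Hif3a and the lowest Egln1. Hif3a averaged 14.99 ± 9.47 CPM (SD, n = 16), above 5.61 in second heart field-like, 5.22 in endothelial-like, 4.03 in paraxial and 3.10 CPM in cardiomyocyte-like sums, with a log2 difference of 3.26 (SE 0.22, adjusted p = 5.1e-21, edgeR). That average pools stages. At E9.5 the erythroid-like mean was 21.2 ± 7.86 CPM (SD, n = 5) in controls and 22.6 ± 4.08 CPM (SD, n = 4) in mutants. The lowest E9.5 sum was 12.4 CPM, and the lowest of all, from an earlier stage, 1.87 CPM. A change with stage within this class was not tested. In thinned cells 6.78% held a Hif3a UMI against 1.63% of cardiomyocyte-like cells; unthinned, 29.9% against 5.33%. Egln1 averaged 22.2 ± 5.97 CPM (SD, n = 16), with a difference of -1.98 (SE 0.12, adjusted p = 2.3e-22). Egln3 (-1.67), Vhl (-1.04) and Hif1a (-0.76) were lower too, and Arnt was higher (0.80). These 6 of 9 calls compare with 75.9% of all genes. Hemoglobin RNA took 4.24% to 46.2% of the UMIs of the erythroid-like sums and at most 1.01% in other classes, and scaling decided 2 of the directions: by UMI totals alone the median of all genes in this contrast was -0.93 (-0.09 with the normalization used), Arnt was at -0.07 (adjusted p = 0.60), and Hif1an turned from 0.10, not called, to -0.77, called lower. On that scaling Hif3a remained higher and Egln1 lower, and Epas1 (-1.30) and Egln2 (-0.93) were called lower as well.

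Cardiomyocyte-like cells had the highest Hif1a and, with second heart field-like cells, the highest Egln1. Hif1a averaged 143 ± 24.3 CPM (SD, n = 18), ahead of 105 ± 14.2 CPM (SD, n = 13) in endothelial-like cells and 33.7 ± 16.1 CPM (SD, n = 16) in erythroid-like cells. The log2 difference was 0.84 (SE 0.07, adjusted p = 1.6e-15, edgeR). Egln1 averaged 198 ± 131 CPM (SD, n = 18) against 175 ± 96.9 in second heart field-like and 157 ± 89.0 in paraxial sums, neighbours that lie within 1 SD of each other. By the median the order of the leading pair was the other way, 171 CPM in second heart field-like and 154 CPM in cardiomyocyte-like sums, and the classes hold control and mutant samples in different shares. The log2 difference of Egln1 in cardiomyocyte-like cells was 0.51 (adjusted p = 2.8e-05). With Vhl (0.35, adjusted p = 0.014) and Epas1 (0.86, adjusted p = 0.047), 4 of 9 were called, against 56.1% of genes. The Epas1 call was lost when E9.5 was taken alone (0.03) and when markers were read in thinned cells (1.16, adjusted p = 0.075), and the Vhl call when 1 UMI sufficed for a marker (0.19, adjusted p = 0.11). Among the 1571 paraxial mesoderm-like cells only Egln3 was called, and lower (-1.10, SE 0.29, adjusted p = 0.0018), against 37.0% of genes. Egln1 was called higher there when 1 UMI sufficed for a marker (0.37), with E9.5 alone (0.45) and by UMI totals (0.42). Hif1a was called lower there with RLE factors (-0.20). In second heart field-like cells Egln1 (0.49, adjusted p = 0.0024) and Hif1an (0.38, adjusted p = 0.0069) were higher, against 33.2% of genes; neither was called with E9.5 alone (0.17 and 0.25), and Egln1 was not after thinning (0.35, adjusted p = 0.080) nor Hif1an with 1-UMI markers (0.08, adjusted p = 0.77). Over all stages and with the normalization used, Egln2 had no call in any of the 5 contrasts. Its means ran from 54.2 to 63.4 CPM in the 5 classes other than the erythroid-like, where it averaged 30.3 CPM. By UMI totals it was called higher in cardiomyocyte-like (0.23), endothelial-like (0.27) and second heart field-like cells (0.32). In erythroid-like cells it was called lower by UMI totals (-0.93), with E9.5 alone (-0.21) and by RLE, another scaling (-0.29). By RLE it was also called higher in cardiomyocyte-like cells (0.16).

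**Figure D3:**
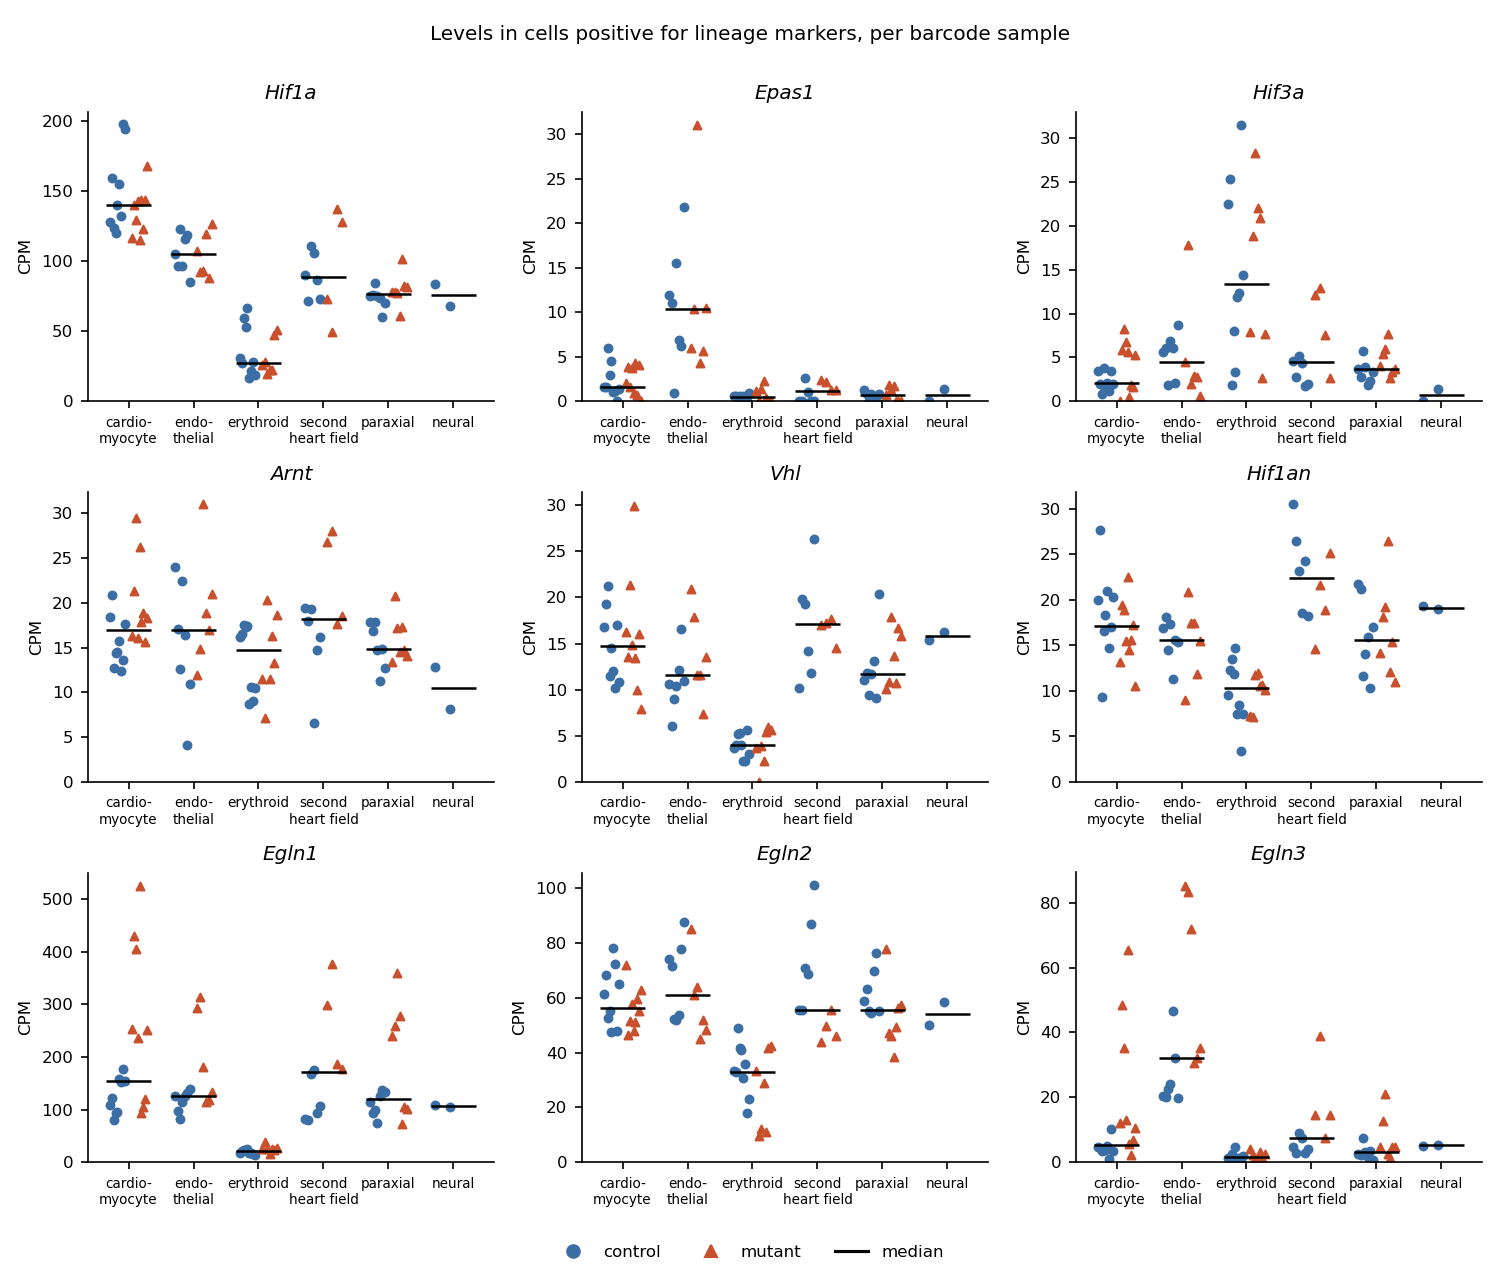
Level in CPM (linear axis) of each of the 9 genes in each class sum of at least 20 cells; points are barcode samples of all stages, by genotype, and black lines are class medians. Epas1 and Egln3 are highest in the endothelial-like sums, Hif3a in the erythroid-like sums and Hif1a in the cardiomyocyte-like sums, and Egln1 is lowest in the erythroid-like sums.

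The genotype difference was then taken within each class at E9.5, a restriction chosen after the values over all stages were seen. Run was a covariate in these fits. A control that was the only sample of its run added nothing to the fitted difference, as with Bar4 in cardiomyocyte-like and erythroid-like cells. In cardiomyocyte-like cells Egln1 stood at 109, 121, 153, 155 and 177 CPM in 5 controls and at 237, 252, 405, 429 and 525 CPM in 5 mutants, with no overlap. The log2 fold change was 1.49 (SE 0.23, adjusted p = 0.0034, edgeR). Egln3 stood at 1.13, 3.39, 4.42, 4.76 and 10.2 CPM in controls and at 10.5, 13.0, 35.2, 48.5 and 65.5 CPM in mutants, again apart, at 2.92 (SE 0.50, adjusted p = 0.0066). Without control Bar22 the Egln3 call was lost (2.92, adjusted p = 0.066). These were 2 of 7 members tested, where 2.02% of genes were called; Epas1 and Hif3a were too low to be tested.

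In second heart field-like cells, the population named in the study's question, Egln1 stood at 81.1, 83.1 and 107 CPM in 3 controls and at 299.6 and 376 CPM in 2 mutants. Its log2 fold change was 2.08 (SE 0.17, adjusted p = 7.3e-08, edgeR), and 1.87 to 2.19 with each sample left out. Control Bar4 was the only sample of its run here. With run as a covariate, the fit compared controls Bar22 and Bar23 with mutants Bar19 and Bar21. Of the cells of these samples, 1.96% and 2.19% typed as male in the controls, against 99.0% and 96.9% in the mutants. Genotype and sex therefore cannot be told apart in this class at E9.5, and male share was not fitted within classes. Egln3 stood at 2.83, 4.04 and 4.62 CPM and at 14.6 and 38.9 CPM, also without overlap, at 2.85 (adjusted p = 0.027). That call was lost without Bar21 (1.93), Bar22 (3.18) or Bar23 (2.56). Each of these fits left 1 mutant or 1 control in the comparison, so its spread came from the other genotype alone. These 2 of 7 members compare with 8.63% of genes called. The sums held 116 control and 52 mutant cells.

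In paraxial mesoderm-like cells Egln1 stood at 92.8, 115, 134 and 138 CPM in 4 controls and at 259, 278 and 359 CPM in 3 mutants, apart, with a log2 fold change of 1.55 (SE 0.14, adjusted p = 0.00016, edgeR). Egln3 stood at 0.849, 2.30, 2.46 and 3.42 CPM and at 2.56, 12.7 and 21.1 CPM, with 1 mutant among the controls (2.40, adjusted p = 0.024). Egln2 was lower (-0.45, adjusted p = 0.038). The Egln3 call was lost without Bar19, Bar20, Bar22 or Bar23 (1.62 to 2.42) and the Egln2 call without Bar20, Bar21, Bar22 or Bar23. Controls Bar4 and Bar9 were each the only sample of their run, so the fit compared controls Bar22 and Bar23 with the 3 mutants. Without Bar22 or Bar23, 1 control was left in that comparison. These 3 of 7 members compare with 13.5% of genes.

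In endothelial-like cells, where Egln3 was already high in controls, it stood at 19.7, 20.1 and 20.4 CPM in 3 controls and at 71.8 and 83.3 CPM in 2 mutants. The log2 fold change was 1.93 (SE 0.25, adjusted p = 0.012, edgeR), and its value was 1.81 to 2.04 with each sample left out. Egln1 stood at 96.5, 127 and 140 CPM and at 180 and 314 CPM (1.15, adjusted p = 0.053). With each sample left out it was 0.67 to 1.48, among them 1.37 without control Bar22 and 0.98 without control Bar23. Control Bar9 was the only sample of its run, so with run as a covariate those fits leave 1 control beside the mutants. The fits without mutant Bar19 or Bar20 leave 1 mutant, so that the spread comes from the controls alone. Calls of Egln1 and Egln3 in any of these fits are therefore no sign of stability. With all samples the count was 1 of 9, where 0.769% of genes were called. Erythroid-like cells had 0 of 8 members called by edgeR, where 0.0850% of genes were. Egln1 and Egln2 had an unadjusted p under 0.05 by edgeR, as did 1047 of the 10584 genes tested. Egln1 there stood at 14.2, 15.7, 16.8, 18.1 and 21.1 CPM in controls and at 15.6, 24.5, 26.0 and 37.8 CPM in mutants (0.63), with 1 mutant among the controls, and it was called without mutant Bar20 (0.81). Egln2 had -0.83 there, and was also called without Bar20 (-1.21). Differences of the genotype effect between classes were not tested.

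**Figure D4:**
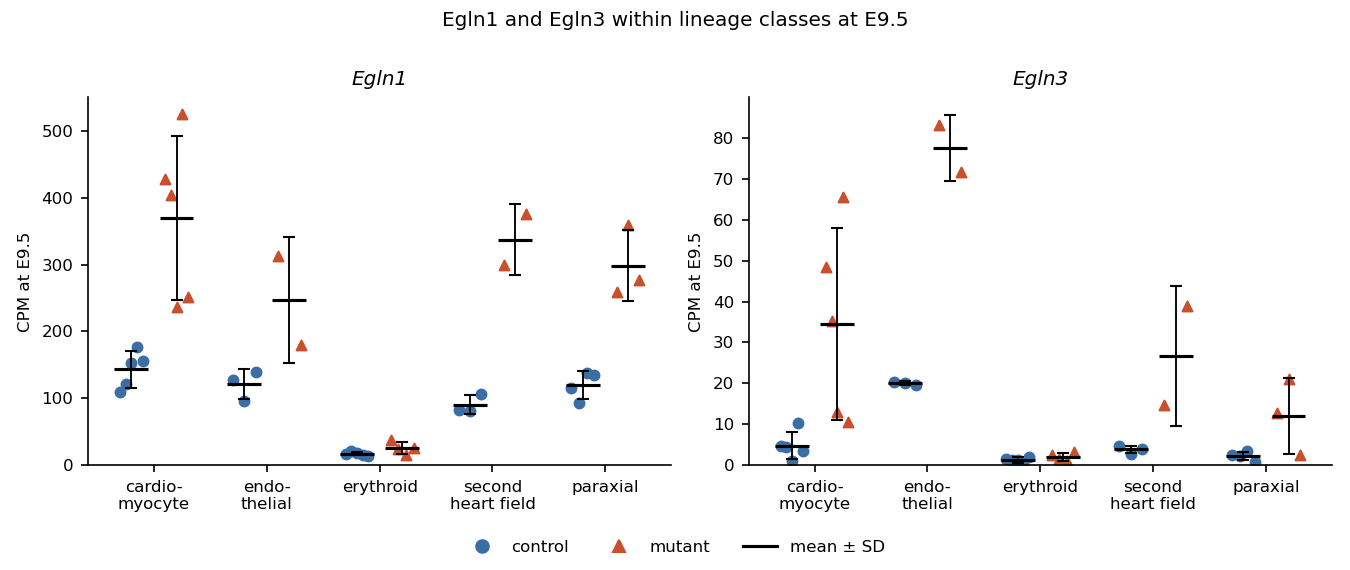
Egln1 (left) and Egln3 (right) in each class sum at E9.5, in CPM on a linear axis, by genotype; points are barcode samples with at least 20 cells of the class and black lines the mean ± SD. Mutant points of Egln1 lie above control points in every class drawn except the erythroid-like one, where 1 mutant (15.6 CPM) lies among the controls.

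Over all stages within a class, with stage and run as covariates, cardiomyocyte-like cells had Egln1 (0.92, adjusted p = 0.023, edgeR) and Egln3 (1.94, adjusted p = 0.025) called, 2 of 9 where 1.24% of genes were. Both calls were lost without Bar1, Bar3, Bar9, Bar22 or Bar23, and that of Egln3 also without Bar19; adjusted p was highest without Bar22 (0.79, adjusted p = 0.11, and 1.73, adjusted p = 0.13). Paraxial cells had Egln1 alone (0.94, adjusted p = 0.014), where 4.07% of genes were called, and lost it without Bar22 (0.82) or Bar23 (0.73). Endothelial-like, second heart field-like and erythroid-like cells had none by edgeR, where 0.0188%, 0.112% and 0.00917% of genes were called. Unadjusted edgeR p was under 0.05 for 2, 3 and 2 members, beside 857 of 10612, 1378 of 9855 and 771 of 10908 genes. Egln1 was at 0.70 (adjusted p = 0.27), 1.01 (0.16) and 0.38 in these classes.

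Genes that answer to HIF, a list of 40 without any of the 9, were set beside the hydroxylases. The list was chosen with earlier results of these data known, so its counts are a description and no independent test. At E9.5, 34 of the 38 tested were called higher in mutants and 1 lower, where 5.71% of all genes tested were called higher and 4.55% lower, with a median log2 fold change of 1.53 against 0.02 over all genes. Largest were Bhlhe40, a transcriptional repressor of the clock (3.59, from a median of 1.48 to 16.7 CPM), Ndufa4l2, which dampens mitochondrial respiration (3.37), Ier3, an early response gene (3.22), Ddit4, an inhibitor of mTORC1 (3.21, from a median of 17.9 to 183 CPM), and Ndrg1, a stress-responsive gene (3.10). The 6-cell control Bar6 stood apart for Ddit4, at 141 CPM against at most 18.6 CPM in the other 5 controls, and for Bhlhe40, at 7.44 against at most 1.68 CPM; medians are given for this reason. The 1 that fell was Angptl4, an inhibitor of lipoprotein lipase (-0.77). At E8.0 edgeR called 0 of 38, where 0.0244% of all genes were called, so nothing is read from that count; the median was 0.15 against 0.01. In the test of the difference between the stages 25 of 38 were called, where 0.464% of all genes were. Within classes at E9.5, 30 of 37 were called higher in cardiomyocyte-like cells (2.02% of all genes called), 32 of 35 in paraxial (13.5%), 32 of 34 in second heart field-like (8.63%), 10 of 35 in endothelial-like (0.769%) and 0 of 32 in erythroid-like cells (0.0850%). With such different shares over all genes, the counts are not compared between classes. In erythroid-like cells the list's median was 0.41 against 0.00410 over all genes.

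A second list of 18 genes held HIF regulators and the other subunits of the VHL ligase. At E9.5, 3 of the 18 were called, beside 10.3% of all genes, and nothing is read from that count for the list. Siah2, a ubiquitin ligase that acts on EGLN proteins, rose (0.67), and Arntl, a clock factor related to ARNT (-0.92), and Siah1b (-0.51) fell. The median was -0.03, against 0.02 over all genes tested. None of the 18 was called by edgeR at E8.0 or in the difference between stages. The ligase subunits Elob, Eloc, Cul2 and Rbx1 and Arnt2, a close relative of Arnt, had no call by genotype at either stage in summed cells. Within classes at E9.5, Eloc was called lower in second heart field-like cells (-0.59, adjusted p = 0.021, edgeR), 1 of 11 tested where 8.63% of all genes were called. Rack1, a scaffold protein, was called higher in paraxial cells (0.22, adjusted p = 0.018), 1 of 15 tested where 13.5% were. With 1 call in each class, nothing is read from these counts for the list.

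As a description, the genes whose pattern was most like that of 3 members were named, by Pearson's r of log2(CPM + 1) over the 21 samples of at least 20 cells and 10266 genes, samples that share stage, genotype and run. Egln3 was most like Vldlr (0.93), Hmox1 (0.92), Clcn3 (0.92), Ankrd37 (0.91) and Bnip3l (0.91); Hmox1, Ankrd37 and Bnip3l are on the list of genes that answer to HIF. Hif1a was most like Ubap2 (0.95), Klhl21 (0.94), Larp7, Pkp4 (both 0.93) and Tram1 (0.92). Epas1, with few UMIs, reached less: Jade3 (0.84), Zdhhc2 (0.80), Tfe3, Fam122b and Plekha1 (0.79 each).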

How the data were processed

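Reporter-positive cells of Mesp1-Cre; Ai9 embryos, Wls fl/+ (control) or Wls fl/fl (mutant), were profiled by droplet single-cell RNA-seq. The authors deposited 1 matrix of raw UMI counts with a table that gives each cell's run, barcode, stage and condition. Per the submitters' processing notes, kallisto, bustools 0.46.1, Cell Ranger and GRCm38 were used; the annotation, use of strand and cell filters are not given in the sources used here, nor is the treatment of doublets beyond the barcodes. Doublets were not called again, and cells with markers of more than 1 class were left out of classes. Counts were summed per barcode sample (134457 to 43470337 UMIs at E9.5, 10849505 to 18034568 at E8.0), or per sample and class from at least 20 cells. Sums were tested with edgeR 4.0.16 (R 4.3.3): quasi-likelihood F test, two-sided, filterByExpr, TMM, Benjamini-Hochberg adjustment over all genes tested at 0.05. SE is the log2 fold change over the square root of F, and 95% intervals follow from it. Stage and run were covariates over all stages and run at E9.5. Thinning to 5000 UMIs left out 447 shallower cells (365 control, 82 mutant). Intervals of single samples are exact Poisson and cover counting error only. On simulated counts the E9.5 test recovered 66% of genes changed by 1 and 95% of those changed by 2 on the log2 scale, over 17227 genes. It also called 21 genes that had not been changed. Alternatives were DESeq2 1.42.0, RLE factors, UMI totals, no low-count filter, runs apart, male share as covariate, and samples, stages or cells left out. All 9 members are named throughout, with at most 5 genes per direction from each list by size among those called, and the 5 most alike genes. The members and lists were chosen with earlier results of these data known.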

Additional observations from a re-analysis of the deposited data

Results flagged for a closer look

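Of 18 groups of 6 samples checked (9 genes in controls and in mutants at E9.5), 3 held a sample far from the others, and chance marks about 1 in 20 groups. The 6-cell control Bar6 was high for Egln1, at 149 CPM with the nearest control at 101 CPM, and for Egln3, at 22.3 CPM with the nearest at 5.08 CPM. Control Bar7 was high for Hif3a, at 16.3 CPM (39 UMIs, exact Poisson interval 11.6 to 22.3 CPM) with the nearest at 7.44 CPM. Of its cells 27.4% were erythroid-like, the highest share among the E9.5 controls of at least 20 cells. The others of that size had 7.96% to 25.3%, and the 6-cell Bar6 had 33.3%. The genotype difference grew from E8.0 to E9.5 for Egln1 by 1.12 and for Egln3 by 2.36 on the log2 scale, by a test of the difference itself. Male share was not fitted in that test, and at E8.0 genotype and sex cannot be told apart.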

How the results depend on the processing

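Of 2324 member values under alternatives, 2061 kept their direction and side of the threshold, 153 that were called on neither side changed sign (among them Egln1 and Egln3 at E8.0 with male share as covariate), 66 lost a call, 42 gained one, and 2 that were called on at least 1 side reversed, both in erythroid-like cells by UMI totals: Arnt at -0.070 and Hif1an, not called before, at -0.77. At E9.5 Egln1 ran from 1.33 to 1.54 and Egln3 from 2.28 to 2.72 with no call lost. DESeq2 called 3274 genes over all stages, 45 at E8.0, 2701 at E9.5 and 397 in the interaction; without the low-count filter the counts were 35 at E8.0 and 669 in the interaction. Over all stages, run 1 alone gave 2 genes and 0 members, run 2 gave 27 and 1, and run 3 gave 57; male share as covariate gave 945 (0 at E8.0), and leaving out E9.5 gave 1 gene and 0 members. At E9.5 run 3 alone gave 58 genes and 2 members and UMI totals 952 and 2; the interaction had 49 genes by UMI totals and 155 without blood cells. Between E9.5 and E8.0 run 1 alone called 5 members. With run as covariate E8.5 against E8.0 had 131 genes and 0 members, and E9.5 against E8.5 had 0 genes. Against other classes, the paraxial class had 2 members with 1-UMI markers, at E9.5 alone, by RLE and by UMI totals, and the second heart field class 1 with 1-UMI markers or after thinning, 0 at E9.5 alone and 4 by UMI totals. By genotype within classes, thinned markers gave 258 genes in cardiomyocyte-like, 5 in endothelial-like, 2 in erythroid-like, 234 in paraxial and 41 (1 member) in second heart field-like cells; 1-UMI markers gave 1, 775 (2 members) and 1 in endothelial-like, paraxial and second heart field-like cells; E9.5 alone gave 68 (1), 9, 1387 (3) and 676 (2) in endothelial-like, erythroid-like, paraxial and second heart field-like cells. Leaving out 1 sample each gave 1259 to 2479 genes and 2 to 3 members over all stages, 1 to 10 and 0 at E8.0, 603 to 2353 and 2 to 4 at E9.5, 29 to 137 and 1 to 2 in the interaction, and 2965 to 4483 and 3 to 4 between E8.0 and E9.5. Within classes it gave 5 to 238 and 0 to 2 (cardiomyocyte-like), 1 to 9 and 0 to 1 (endothelial-like), 0 to 7 (erythroid-like), 38 to 746 and 0 to 2 (paraxial) and 3 to 40 (second heart field-like), and at E9.5 30 to 458 and 1 to 2, 50 to 498 and 1 to 2, 1 to 482 and 0 to 2, 223 to 1435 and 1 to 3, and 301 to 646 and 1 to 2 in the same order. The lowest counts at E9.5 in summed cells came without Bar23 and the highest without Bar20. The split of genes called higher and lower was 931 to 1201 over all stages (1146 to 342 by UMI totals, 1441 to 966 by RLE), 983 to 783 at E9.5 (705 to 247 by UMI totals) and 2256 to 1814 between E8.0 and E9.5 (1474 to 2891 by UMI totals, where the median of all genes was -0.12). Against other classes it was 3979 to 3371 (4724 to 1995 by UMI totals) for cardiomyocyte-like, 2986 to 3151 (3858 to 1271, and 3432 to 2353 by RLE) for endothelial-like, 4736 to 5210 (1187 to 9607, and 3700 to 6150 by RLE) for erythroid-like, 2910 to 1938 (4612 to 973) for paraxial and 2535 to 1812 (4034 to 583) for second heart field-like cells. The cause of these changes was not tested. Epas1, Hif3a and Egln3 rest on few UMIs, which limits what can be seen of them within classes. E9.5 within run 2 alone was not run, since runs were fitted alone only where they held at least 2 samples of each genotype, and no E8.0 sample held under 20 cells. No paired analysis was possible because barcodes carry no replicate number shared between genotypes.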

Other observations

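Hif3a, which showed no call by genotype in summed cells at E9.5, was set apart by genotype in 3 of the cell classes there. In cardiomyocyte-like cells the 5 controls stood at 1.13 to 3.49 CPM and the 5 mutants at 5.24 to 8.20 CPM. In paraxial mesoderm-like cells the 4 controls stood at 2.28 to 3.69 CPM and the 3 mutants at 5.43 to 7.69 CPM, and in second heart field-like cells the 3 controls at 2.02 to 4.62 CPM and the 2 mutants at 12.2 and 13.0 CPM. Control and mutant samples did not overlap in these 3 classes. The values rest on 21 and 32, 48 and 24, and 9 and 11 UMIs in controls and mutants, too few for the gene to pass the low-count filter, so the differences at E9.5 were not tested, and they were picked after the values were seen. Over all stages, where Hif3a was tested in these classes, it was not called: 0.32 in cardiomyocyte-like (adjusted p = 0.78, edgeR), 0.50 in paraxial (0.42) and 0.95 in second heart field-like cells (0.49). In endothelial-like cells at E9.5 the controls stood at 5.64, 6.03 and 8.75 CPM and the mutants at 1.94 and 17.8 CPM, 1 below and 1 above every control (0.85, adjusted p = 0.70). In erythroid-like cells, which hold most Hif3a, the genotypes overlapped, at 12.4 to 31.5 CPM in controls and 18.9 to 28.4 CPM in mutants. With blood cells left out, erythroid and megakaryocyte or myeloid alike, the difference in summed cells was 0.58 on the log2 scale (adjusted p = 0.18, edgeR).

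The single E7.5 control sample, with 28 cells of which 50% were erythroid-like, belongs to no comparison by stage. It stood at 70.5 CPM for Egln1 (exact Poisson interval 49.1 to 98.04), 50.4 CPM for Hif1a (32.6 to 74.3), 34.2 CPM for Egln2 (19.9 to 54.8), 14.1 CPM for Hif3a (5.67 to 29.0), 4.03 CPM for Egln3 (0.488 to 14.6) and 2.01 CPM for Epas1 (0.051 to 11.2).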
